A study of Mus musculus with 10 samples.

Results

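In a series of 10 B16F10 melanomas, the 4 tumors with the most leukocyte RNA for their melanoma RNA were compared with the other 6. Members were chosen by a ratio. In each tumor the counts of 5 leukocyte genes (Ptprc, Lcp1, Coro1a, Laptm5 and Cd52) were summed and divided by the summed counts of 5 pigment-cell genes (Pmel, Mlana, Tyr, Dct and Tyrp1), and the 4 highest ratios were taken. They belonged to KO 5, NTC 1, KO 2 and KO 1, so that 3 of 5 KO tumors and 1 of 5 NTC tumors were on the rich side.

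The series is bulk RNA-seq of subcutaneous tumors removed on day 15. KO tumors grew from B16F10 cells with *Mir25* knocked out by CRISPR-Cas9, and NTC tumors from B16F10 cells carrying a non-targeting control guide, with 5 tumors in each group. All hosts were C57BL/6J mice, which the study's methods give as female and 9 to 12 weeks old. All 10 mice received the same combination therapy, so no untreated tumor is in the comparison: irradiated B16 cells that secrete GM-CSF (GVAX) on days 1 and 4, and an anti-PD-1 antibody at 10 mg/kg on days 6, 9 and 12. B16F10 is a single mouse melanoma line, and which guide, pool or clone gave the KO tumors is not given in the sources used here. A tumor is treated as a replicate, and the p-values below measure only the spread between these tumors.

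Leukocytes that enter a melanoma include macrophages, monocytes, neutrophils, dendritic cells, T cells, NK cells and B cells. Macrophages clear dying cells and make complement C1q, T and NK cells kill through perforin and granzymes, and dendritic cells carry antigen to T cells through MHC class II. Fibroblasts lay down the collagen matrix among them and are not leukocytes. In bulk RNA a gene of these cells can be higher because more of the cells are present or because each cell holds more of the transcript, and these cannot be told apart here.

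miR-25, the microRNA that separates the groups, is processed from a hairpin within an intron of Mcm7. Its mature 3p strand (RefSeq, GRCm38.p6, chr5:138165332-138165353, minus strand) is shown because the label of every KO tumor rests on it, with the seed, bases 2 to 8, in capitals.
mmu-miR-25-3p: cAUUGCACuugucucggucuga
The gene row of Mir25 held 0 counts in all 10 tumors, NTC tumors included, so it could not check the labels.

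The values that chose the tumors were these. The ratio was 0.189 in KO 5, 0.150 in NTC 1, 0.126 in KO 2 and 0.0757 in KO 1, and the first tumor outside, NTC 5, was at 0.0399. The remaining tumors were at 0.0309 (NTC 3), 0.0281 (KO 4), 0.0277 (KO 3), 0.0130 (NTC 4) and 0.0117 (NTC 2). In CPM, counts scaled to library size with a trimmed-mean (TMM) factor, the 5 leukocyte genes summed to 1016 to 2101 in the rich tumors and 238 to 713 in the others. The 5 pigment-cell genes summed to 10713 to 14083 and 15994 to 20319. The same 4 tumors led by leukocyte CPM alone. Ptprc, the CD45 phosphatase of all leukocytes, was at 656 in KO 5, 484 in NTC 1, 569 in KO 2 and 318 in KO 1, against 53.1 to 216 in the other 6 (median 133). These 10 genes are given as a description and were left out of every count below.

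**Figure D1:**
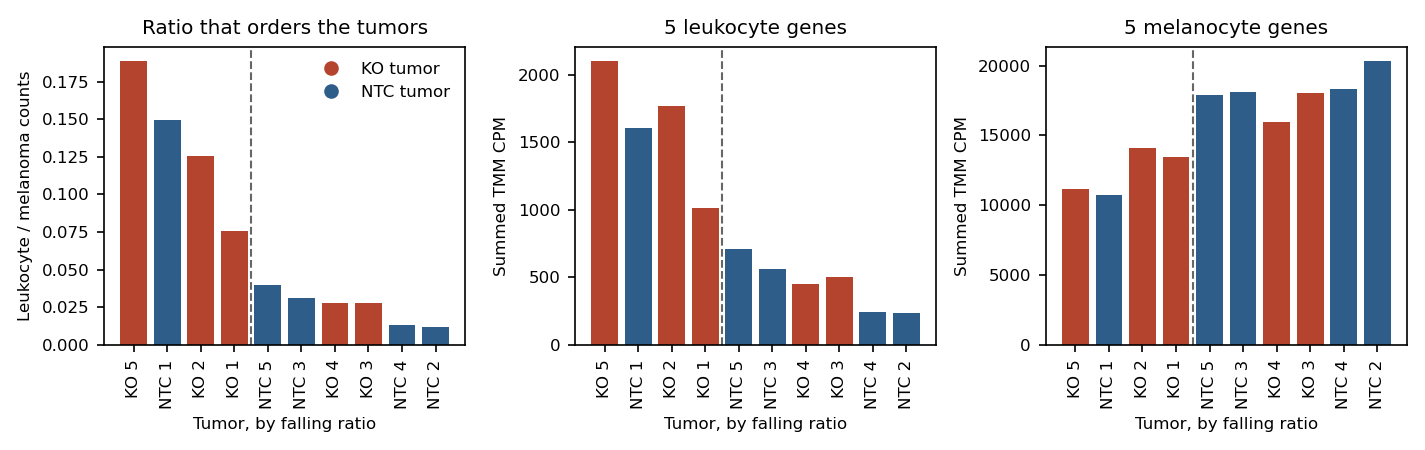
Each bar is a tumor, ordered by falling ratio of leukocyte to melanoma counts; panels show the ratio (no unit) and the summed TMM CPM of the 5 leukocyte and 5 pigment-cell genes, with KO tumors in red and NTC tumors in blue. The dashed line separates KO 5, NTC 1, KO 2 and KO 1, at a ratio of 0.0757 or more, from the other 6, at 0.0399 or less.

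The labels KO and NTC took no part in the ordering. The mean log2 ratio was -3.89 ± 1.25 (SD, n = 5) in KO and -5.02 ± 1.48 (SD, n = 5) in NTC tumors, a difference of 1.13 ± 0.87 (SE). A two-sided exact permutation test over all arrangements of the labels gave p = 0.238, where 0.00794 is the smallest p the design allows, so the difference was within the spread between tumors. Without NTC 1 it was 1.70, with an exact permutation p of 0.0794.

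NTC 1 stood apart from the other libraries, and the results were therefore also computed without it. It had 11896643 reads on genes, against 23243707 to 28682130 in the other 9 tumors. Reads on no annotated gene made up 42.9% of its reads, against 17.5% to 28.2%, and it had a count for 33193 genes, against 22192 to 25435. Mitochondrially encoded genes took 29.4% of its gene reads, against 3.96% to 12.5%. It was the only NTC tumor on the rich side, so without it the contrast rests on KO 1, 2 and 5 against KO 3 and 4.

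For each of 15811 genes tested, an edgeR fit with the group as a covariate gave a log2 difference, rich minus other, with its standard error. A gene was called when the log2 difference was above 1 or below -1 and no tumor of one side reached into the other in TMM CPM. No p-value is given for this contrast, because the tumors were sorted on genes of the same libraries. By this rule 1360 genes were higher (8.60%) and 115 lower (0.727%) in the rich tumors, and the median log2 difference of all genes was -0.00. Without NTC 1, 1244 of 16068 genes were called higher (7.74%) and 175 lower (1.09%). Of the genes called over 10 tumors, 1160 of the 1360 higher and 90 of the 115 lower were called again. Leaving out a rich tumor cannot make separate sides overlap, apart from a small change in scaling. A call could thus be lost almost only through the fold, and being called again is no independent check.

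Genes of macrophages and monocytes were nearly all higher in the rich tumors. In the macrophage and monocyte list 20 of 23 genes tested were called higher, beside 8.60% of all genes, with a median log2 difference of 2.02. Ctss, the lysosomal protease cathepsin S, was at 4642 in KO 5, 2875 in NTC 1, 3154 in KO 2 and 2039 in KO 1. In the other 6 tumors it was at 203 to 784, so that the lowest rich tumor was above the highest of the rest, and the log2 difference was 2.65 ± 0.40. Lyz2, the lysozyme of myeloid cells, was at 3652 in KO 5, 3068 in NTC 1, 2596 in KO 2 and 1530 in KO 1, and at 145 to 622 in the other 6 (median 514), a difference of 2.64 ± 0.46. Cd68, a late endosomal glycoprotein of macrophages, was at 123 to 324 against 21.2 to 81.7 (2.36 ± 0.38). The receptor for macrophage growth factor, Csf1r, differed by 1.96 ± 0.42, the F4/80 gene Adgre1 by 1.88 ± 0.53 and C1qa, a chain of complement C1q, by 1.68 ± 0.47.

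Genes of that list that were not called differed among the rich tumors. Spp1, which encodes osteopontin, was at 250.4 to 344 in KO 1, NTC 1 and KO 5 but at 66.9 in KO 2, within the 34.4 to 79.7 of the other tumors. The scavenger receptor gene Cd163 was at 47.6 in NTC 1 and 4.71 to 7.95 in KO 1, 2 and 5, against 0.197 to 15.2 in the rest. Its log2 difference changed sign, from 0.95 with NTC 1 to -0.91 without it. For the list as a whole 20 of 23 genes were called higher without NTC 1, beside 7.74% of all genes, with a median of 1.79.

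Of leukocyte genes shared by many lineages and not used to sort the tumors, 13 of 15 were called higher, beside the same 8.60%, with a median of 1.88. Cd53, a tetraspanin of leukocytes, was at 329 in KO 5, 311 in NTC 1, 232 in KO 2 and 145 in KO 1, against 23.8 to 77.7 in the other 6 (median 54.7). Cybb, the catalytic subunit of the phagocyte NADPH oxidase, was at 349 to 831 against 39.3 to 169 (2.33 ± 0.44), and Cd48 at 30.8 to 76.0 against 4.80 to 18.5 (2.16 ± 0.42). Rac2, a GTPase of blood cells, was not called, since KO 1 at 33.7 was below NTC 5 at 38.1. Arhgdib was nearly level across the tumors, at 221 to 271 against 205 to 238.

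Spi1, which encodes the myeloid transcription factor PU.1, was in the same list and was called higher (1.89 ± 0.39). The RefSeq promoters of GRCm38.p6, 250 bases before to 50 after a gene's start, were therefore searched on both strands for 8 letters that PU.1 is known to bind, GAGGAAGT. These letters were in 3.20% of the 32851 promoters of the table. A promoter was at hand for 69.4% of the genes tested and 71.7% of those called higher, under the 80% needed, so a comparison of the shares between gene sets is void and none is read here. The upstream stretches of 6 called genes of the lists are shown because the letters, in capitals, were found there, each written 5′ to 3′ on the strand of its gene.
C1qc: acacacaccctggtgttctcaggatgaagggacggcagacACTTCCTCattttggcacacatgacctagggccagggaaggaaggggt
S100a8: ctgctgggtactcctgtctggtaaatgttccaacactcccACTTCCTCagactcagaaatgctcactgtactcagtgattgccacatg
Cd37: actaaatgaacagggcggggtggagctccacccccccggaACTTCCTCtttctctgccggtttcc
Havcr2: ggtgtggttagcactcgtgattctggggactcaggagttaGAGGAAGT
Vav1: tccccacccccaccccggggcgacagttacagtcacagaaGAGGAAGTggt
Inpp5d: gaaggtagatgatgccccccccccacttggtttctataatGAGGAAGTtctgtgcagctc
The stretches lie at chr4:136893062-136893149 (minus strand), chr3:90668859-90668946 (plus), chr7:45238840-45238904 (minus), chr11:46454883-46454930 (plus), chr17:57279049-57279099 (plus) and chr1:87620252-87620311 (plus), in that order. In C1qc, S100a8 and Cd37 the letters stand on the strand opposite to the gene. A match is a description of the sequence and no evidence of binding. The log2 differences of these genes were 1.73 for C1qc, 4.51 for S100a8, 2.01 for Cd37, 2.10 for Havcr2, 1.81 for Vav1 and 1.75 for Inpp5d.

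**Figure D2:**
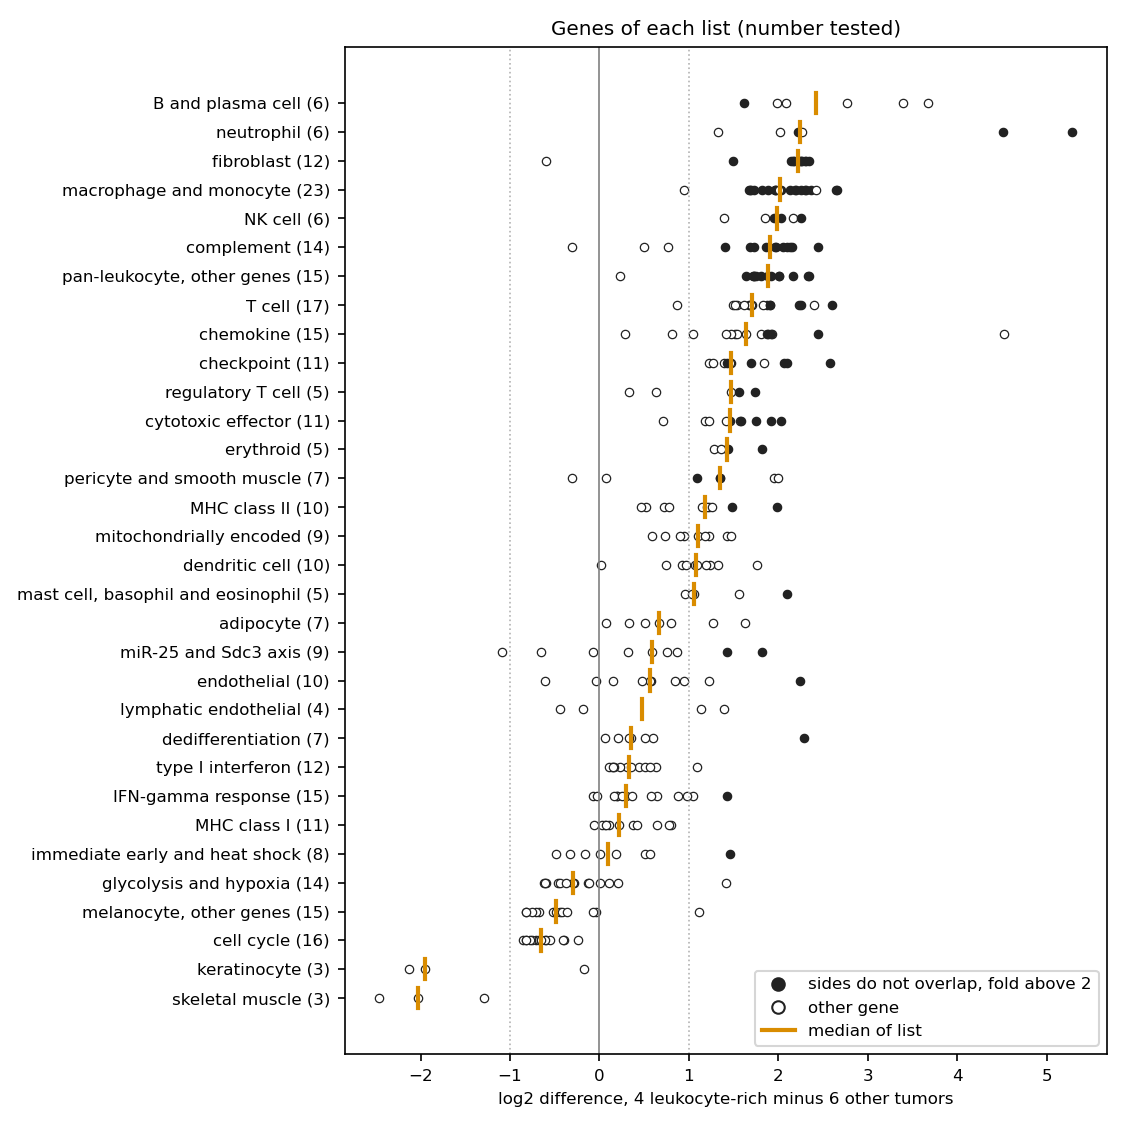
Each circle is a gene of a list, placed by its log2 difference between the 4 leukocyte-rich and the 6 other tumors; filled circles are genes whose sides do not overlap and differ by more than 2-fold, orange bars are list medians, and the number tested stands in brackets. Medians are 2.02 for macrophage, 2.23 for fibroblast and 1.91 for complement genes, but 0.22 for MHC class I, 0.33 for type I interferon and -0.65 for cell cycle genes.

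Fibroblast genes were higher on the leukocyte-rich side as well. Thy1 of that list is also made by T cells, and the other members are matrix or receptor genes of stromal cells. In the fibroblast list 11 of 12 were called higher, beside 8.60% of all genes, with a median of 2.23, and 11 of 12 were called without NTC 1, beside 7.74%, with a median of 1.63. Col3a1, a fibrillar collagen, was at 2946 in KO 5, 3827 in NTC 1, 1374 in KO 2 and 1279 in KO 1, against 24.6 to 989 in the other 6 (median 570.1). NTC 1 was the highest tumor and NTC 2, at 24.6, the lowest, and the log2 difference was 2.30 ± 0.78. Dcn, which encodes the matrix proteoglycan decorin, was at 95.4 to 349 against 2.92 to 68.4 (2.34 ± 0.69), and Fap, the fibroblast activation protein, at 8.49 to 22.6 against 0.263 to 4.61 (2.31 ± 0.63). Fbln1, a matrix glycoprotein, was the exception: it was at 41.9 to 62.6 in the rich and 67.4 to 97.2 in the other tumors, with a log2 difference of -0.60 ± 0.14. The summed level of the 12 genes was 3086 to 7038 CPM on the rich side and 159 to 1948 on the other.

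Complement genes were mostly higher too. In the complement list 11 of 14 were called, beside 8.60% of all genes, with a median of 1.91, and 9 of 14 without NTC 1, beside 7.74%. C3ar1, the receptor for the C3a fragment, was at 275 in KO 5, 257 in NTC 1, 168 in KO 2 and 135 in KO 1, against 16.8 to 62.5 in the other 6 (median 36.8). The protease gene C1s1 was at 70.5 to 245 against 9.06 to 66.9 (2.16 ± 0.54), and C5ar1, the receptor for C5a, differed by 2.13 ± 0.38. C4b, C1ra and C2 were not called. C4b was at 303 to 518 in the rich tumors, and NTC 5 at 624 and NTC 3 at 583 were above all of them. The 3 chains of C1q stand in this list and in the macrophage list.

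T cell genes were higher in the rich tumors but less cleanly separated. In the T cell list 7 of 17 were called, beside 8.60% of all genes, with a median of 1.71, and all 17 log2 differences were above 0, from 0.86 to 2.60. Cd3e, a chain of the T cell receptor complex, was at 10.8 in KO 5, 7.14 in NTC 1, 11.4 in KO 2 and 9.39 in KO 1, against 0.732 to 3.95 in the other 6 (median 1.62), a difference of 2.25 ± 0.47. Icos and Cd28, costimulatory receptors of T cells, differed by 2.60 ± 0.53 and 2.23 ± 0.60. Cd8a, of cytotoxic T cells, was not called: KO 5 and KO 2 were at 37.1 and 36.2, but NTC 1 at 17.1 and KO 1 at 15.6 were below NTC 5 at 19.0. Cd3g was not called either, with NTC 1 at 16.0 just below NTC 5 at 16.6. Without NTC 1, 8 of 17 were called, beside 7.74% of all genes, and the median was 2.04.

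Cytotoxic and NK cell genes were called in part. Of the cytotoxic list 5 of 11 were called, beside the same 8.60%, with a median of 1.46, and of the NK cell list 3 of 6, with a median of 1.99. Gzmk, a granzyme of memory T cells, was at 7.70 in KO 5, 2.96 in NTC 1, 7.60 in KO 2 and 3.03 in KO 1, against 0.163 to 1.98 in the other 6 (median 1.19). Ccl5, a chemokine of activated T and NK cells, differed by 1.92 ± 0.61, with KO 1 at 28.9, NTC 1 at 26.4 and the highest other tumor, NTC 5, at 24.7. Prf1, perforin, and Nkg7, a granule protein, were not called, since NTC 5, at 48.4 for Prf1 and 15.3 for Nkg7, was above both NTC 1 and KO 1. Klre1 and Klrd1, lectin-like receptors of NK cells, were higher by 2.26 ± 0.47 and 1.95 ± 0.43, and Txk, a kinase of T and NK cells, by 2.03 ± 0.56. Ncr1, the NKp46 receptor, was low throughout, at 1.48 to 2.56 against 0.122 to 1.67, and its sides overlapped.

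Of the regulatory T cell list 2 of 5 genes tested were called, beside 8.60% of all genes called higher, and Foxp3 and Ccr8 were too low to be tested. Il2ra, the alpha chain of the IL-2 receptor, was at 2.69 to 4.63 against 0.624 to 1.51 (1.74 ± 0.33), and Tnfrsf18 differed by 1.56 ± 0.39. Ikzf2 was at 24.8 to 33.3 against 19.3 to 28.2 and Tnfrsf4 at 1.48 to 4.63 against 0.793 to 2.91, so neither separated the sides.

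B cell genes varied among the rich tumors. Of the B and plasma cell list 6 of 11 genes could be tested and 1 was called, beside 8.60% of all genes called higher, so that 1 call among 6 genes says little about the list. It was Cd22, a lectin of B cells, at 27.0 in KO 5, 9.43 in NTC 1, 29.7 in KO 2 and 14.9 in KO 1, against 1.71 to 8.26 in the other 6 (median 5.18). Cd79a, Pax5, Blk and Mzb1 were among those too low to be tested. Ighm, the IgM heavy chain, was at 100.0 in KO 1 and 32.6 to 37.4 in the other rich tumors, and NTC 5 was at 56.0. The kappa light chain gene Igkc reached 40.1 in KO 1 but 8.58 in KO 5, below the 15.4 of NTC 5. The list's median was 2.43, the highest of the lists in which any gene was called, although it rests on 6 genes of which 5 overlapped.

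All 10 dendritic cell genes had a log2 difference above 0, but none separated the sides over all 10 tumors. In this list 0 of 10 were called, close to the 8.60% of all genes, so the absence of a call says little. The median was 1.08. Itgax, the CD11c integrin, was at 86.8 in KO 5, 38.9 in NTC 1, 67.3 in KO 2 and 90.7 in KO 1, against 13.3 to 46.6 in the other 6 (median 31.1), so that NTC 1 was below NTC 5 and KO 3. Fscn1, an actin-bundling protein of migrating dendritic cells, differed by 0.75 ± 0.29, and the sides overlapped. Without NTC 1, 4 of 10 were called, beside 7.74% of all genes, Itgax among them at 1.10. The low NTC 1 value of Itgax was not shared by the whole list, since Fscn1 was highest in NTC 1, at 19.1. The cause was not tested.

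MHC class II genes behaved alike. Over 10 tumors 2 of 10 were called, H2-Ab1 and H2-Ob, beside 8.60% of all genes, with a median of 1.18, and without NTC 1 6 of 10, beside 7.74%, with a median of 1.35. H2-Aa, an alpha chain that presents peptide to CD4+ T cells, was at 2132 in KO 5, 971 in NTC 1, 2321 in KO 2 and 1245 in KO 1, against 320.3 to 1079 in the other 6 (median 564). NTC 1 was below NTC 5, at 1079, and the log2 difference was 1.22 ± 0.44. Cd74, the invariant chain, was at 1256 in NTC 1 and 1553 to 3271 in the KO rich tumors, with 1424 in NTC 5. H2-Ab1 was at 769 to 1649 against 170.0 to 612 (1.49 ± 0.44).

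Genes of the MHC class I and interferon lists differed less than 2-fold in the median. None of 11 MHC class I genes was called, close to the 8.60% of all genes, so the absence of a call says little. Their median log2 difference was 0.22. B2m, the class I light chain, was at 3805 in KO 5, 3749 in NTC 1, 3248 in KO 2 and 2442 in KO 1, against 1444 to 2601 in the other 6 (median 2048), a difference of 0.80 ± 0.21 with KO 1 below NTC 3 and NTC 5. H2-D1 differed by 0.78 ± 0.30 without overlap, and the peptide transporter gene Tap1 by 0.10 ± 0.21. Of the IFN-gamma response list 1 of 15 was called, close to the 8.60% of all genes, with a median of 0.29. Its called gene was Cd274, which encodes PD-L1, at 434 in KO 5, 387 in NTC 1, 218 in KO 2 and 331 in KO 1, against 88.2 to 161 in the other 6 (median 135). Gbp2 and Iigp1, GTPases induced by interferon, differed by 0.64 ± 0.22 and 0.37 ± 0.15, and their sides overlapped. None of the 12 type I interferon genes was called, also close to the 8.60%, with a median of 0.33. Rsad2, an antiviral enzyme, was at 182 to 269 against 149 to 331. Its highest tumor, NTC 3, was on the leukocyte-poor side.

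Some chemokine genes separated the sides. In the chemokine list 4 of 15 were called, beside 8.60% of all genes, with a median of 1.64. Cxcl12, a chemokine of stromal cells, was at 79.4 in KO 5, 111 in NTC 1, 55.8 in KO 2 and 44.4 in KO 1, against 1.87 to 23.2 in the other 6 (median 15.6). Cxcl16, of macrophages, differed by 1.88 ± 0.39. Cxcl9 and Cxcl10, ligands of CXCR3 induced by interferon, were not called: Cxcl9 was at 211 to 357 against 94.2 to 296, and Cxcl10 at 96.8 to 174 against 87.8 to 180.4, a log2 difference of 0.29 ± 0.23. The neutrophil attractant gene Cxcl2 had the highest log2 difference of the list, 4.53 ± 1.34, with 76.2 CPM in NTC 1 and 1.73, 0.0380 and 1.56 in KO 5, 2 and 1, and 0.163 to 1.12 in the rest, and was not called. Without NTC 1 its log2 difference was 0.69. Cxcl2 was named after its values were seen.

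**Figure D3:**
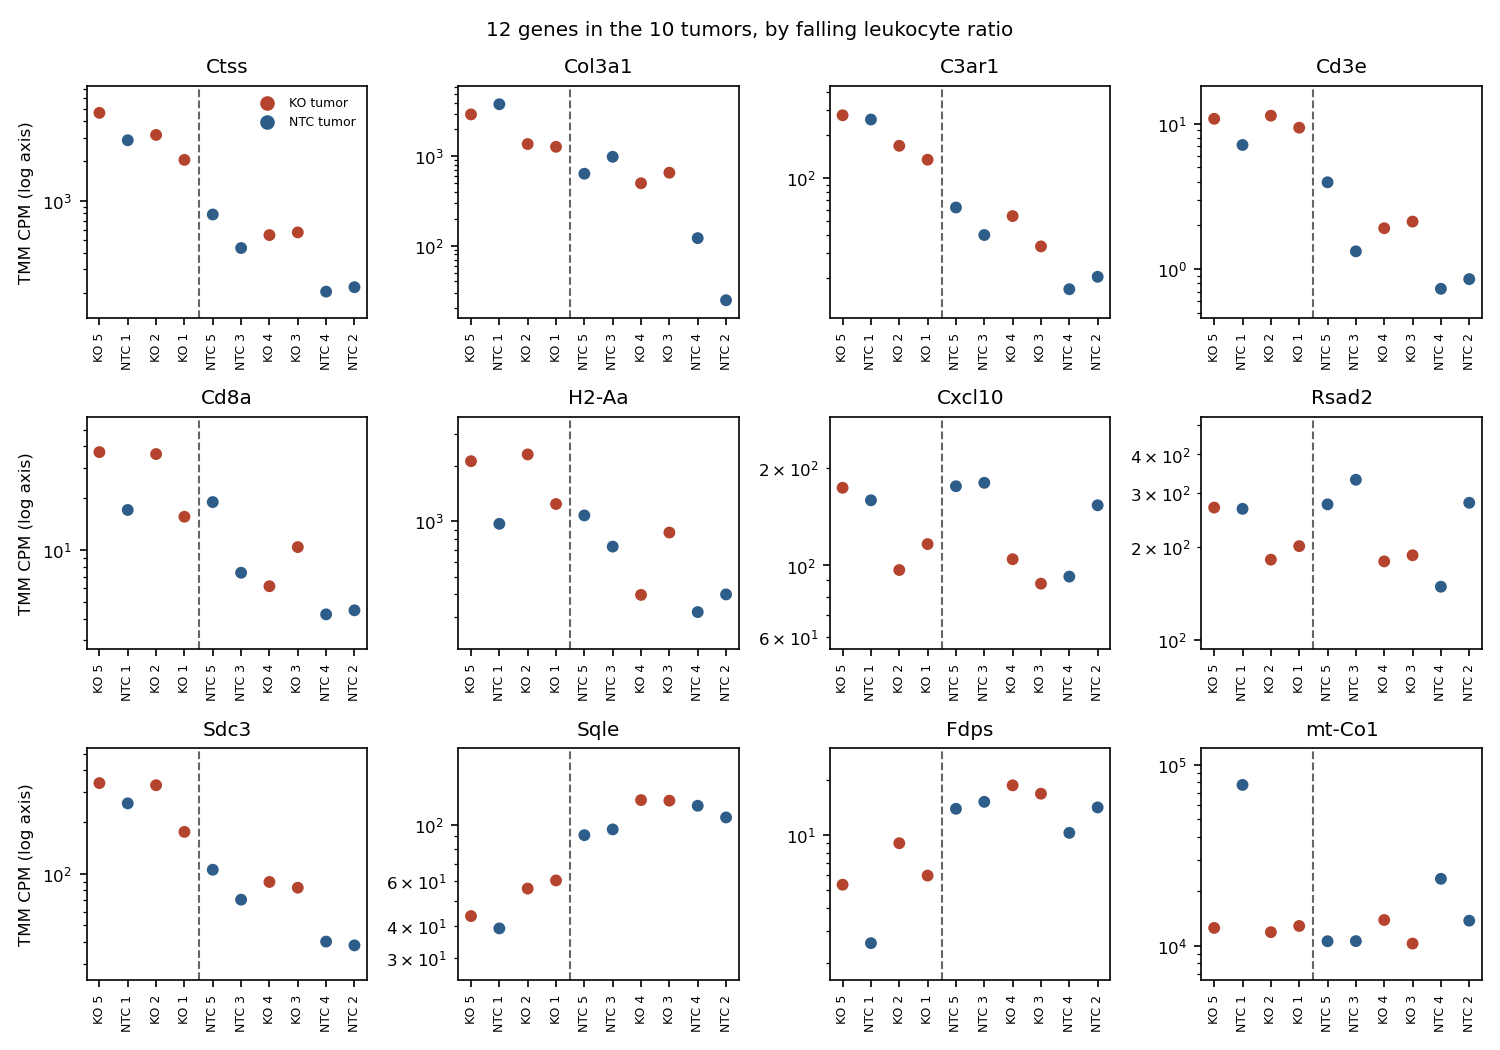
Each panel is a gene, each point its TMM CPM in a tumor on a log axis, with the tumors ordered by falling leukocyte ratio, KO in red and NTC in blue, and the dashed line between the leukocyte-rich and the other tumors. Ctss, C3ar1, Cd3e and Sdc3 have every rich tumor above every other tumor and Sqle and Fdps every rich tumor below, and in Cd8a, H2-Aa, Cxcl10, Rsad2 and mt-Co1 the sides overlap.

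All 11 checkpoint genes had a log2 difference above 1. Of the list 5 of 11 were called over 10 tumors, beside 8.60% of all genes, namely Havcr2, Cd274, Vsir, Cd80 and Cd86, with a median of 1.47, and 8 of 11 without NTC 1, beside 7.74%, with a median of 1.81. Havcr2, which encodes TIM-3, was at 73.1 in KO 5, 41.4 in NTC 1, 49.8 in KO 2 and 30.9 in KO 1, above each of the other 6 (median 10.5). Cd80, a ligand of CD28 and CTLA-4, differed by 2.57 ± 0.41, and Vsir, which encodes VISTA, by 2.07 ± 0.44. Pdcd1, the gene of PD-1, the receptor that the antibody blocks, was at 31.5 in KO 5, 7.68 in NTC 1, 34.1 in KO 2 and 12.7 in KO 1, against 1.99 to 15.7 in the other 6 (median 5.94), with NTC 1 and KO 1 below NTC 5. Pdcd1lg2, which encodes PD-L2, was at 12.7 in NTC 1, below the 14.2 of KO 3, and differed by 1.27 ± 0.27.

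Neutrophil genes were high in NTC 1. Of the list 3 of 6 genes tested were called, beside 8.60% of all genes called higher, and Cxcr2, Ly6g, Camp and Ngp were too low to be tested. S100a9, a calcium-binding protein of neutrophils and monocytes, was at 3.20 in KO 5, 36.4 in NTC 1, 1.71 in KO 2 and 2.38 in KO 1, against 0.0328 to 0.438 in the other 6 (median 0.187). Its log2 difference of 5.29 ± 0.96 became 2.47 without NTC 1. S100a8, its partner, was at 5.34 in KO 5, 26.0 in NTC 1, 3.95 in KO 2 and 3.85 in KO 1, and its difference went from 4.51 to 2.82. Csf3r, the G-CSF receptor, was less uneven, at 17.1 to 43.3 against 12.0 or less (2.22 ± 0.55), and Ly6g, the defining neutrophil marker, had 3 counts over all 10 tumors. Of the mast cell, basophil and eosinophil list 1 of 5 was called, beside the same 8.60%, Siglecf, whose lowest rich tumor, KO 2 at 2.54, was level with NTC 4 at 2.52. Without NTC 1 the count was 0 of 5, beside 7.74% of all genes, and the list median went from 1.05 to 0.37.

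In the endothelial list 1 of 10 was called, close to the 8.60% of all genes, the angiopoietin receptor gene Tek (2.24 ± 0.77), with a list median of 0.57 and 0.18 without NTC 1. Eng, endoglin, was at 103 to 133 against 99.4 to 136, and Vwf at 28.7 to 52.1 against 45.4 to 113. In the pericyte and smooth muscle list 2 of 7 were called, beside the same 8.60%, Notch3 (1.35 ± 0.42) and Myh11 (1.10 ± 0.46). Without NTC 1 only Notch3 was called, beside 7.74% of all genes, and the difference of Myh11 was 0.62. Acta2, smooth muscle actin, was at 94.3 in NTC 1 and 16.0 to 34.3 in the KO rich tumors, and its difference went from 1.95 to 0.69 without NTC 1. None of 4 lymphatic endothelial, 3 keratinocyte, 3 skeletal muscle or 7 adipocyte genes tested was called. Ttn, the titin gene of muscle, was high in a pair of leukocyte-poor tumors, at 157 in KO 4 and 78.8 in KO 3, and Dsp, of keratinocyte junctions, at 15.2 in KO 3. Fabp4, of adipocytes and macrophages, was at 70.3 to 158 against 8.74 to 79.5. Of the erythroid genes 2 of 5 were called, beside 8.60% of all genes, and 0 of 5 without NTC 1, beside 7.74%. The hemoglobin gene Hbb-bs was at 1177 in KO 2, 332 in NTC 1 and 209 in KO 1, the lowest of the rich tumors, against 52.2 to 206.

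Genes of the pigment-cell, cell cycle and glycolysis lists are given by their differences. Only 0.727% of all genes were called lower, so that the absence of a call in such short lists says nothing about them. Of 15 pigment-cell genes not used for the sorting none was called, 14 of 15 had a log2 difference below 0, and the median was -0.49. Mitf, the master regulator of the lineage, was at 501 in KO 5, 456 in NTC 1, 727 in KO 2 and 738 in KO 1, against 789 to 1058 in the other 6 (median 856), so that the sides did not overlap at a difference of -0.67 ± 0.15. Gpnmb, of melanosomes and macrophages, differed by -0.36 ± 0.17, and its sides overlapped. Ednrb, the endothelin receptor B gene, was the member above 0, at 1.12 ± 0.92, with 132 in NTC 1 and 5.90 to 9.15 in the KO rich tumors. Without NTC 1 its difference was -1.35, and it was named after its values were seen. All 16 cell cycle genes had a log2 difference below 0 and none was called, with a median of -0.65, a range of -0.86 to -0.24 and a median of -0.76 without NTC 1. Top2a, a DNA topoisomerase of dividing cells, was at 441 to 636 against 604 to 889 (-0.65 ± 0.14), and Mki67, at 328 to 442 against 379.5 to 663, overlapped. For 14 genes of glycolysis and hypoxia the median was -0.29, with a range of -0.61 to 1.41 and 4 genes above 0, and none was called. Eno1, a glycolytic enolase, was at 1520 to 2027 against 2719 to 3584 (-0.59 ± 0.14), without overlap.

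None of the mitochondrially encoded genes was called. The median of 9 mitochondrial genes was 1.10 with NTC 1 and -0.22 without it. The oxidase gene mt-Co1 was at 77573 in NTC 1 and 11904 to 12877 in the KO rich tumors, against 10295 to 23474 in the rest. Of 8 immediate early and heat shock genes 1 was called, close to the 8.60% of all genes, Atf3 (1.47 ± 0.20), and Fos (0.18 ± 0.20) and Dnajb1 (-0.32 ± 0.10) were not. Among 7 dedifferentiation genes, which mark melanoma cells that have lost pigment programs, 1 was called, also close to that share, Egfr (2.29 ± 0.75), at 56.2 in NTC 1, while Axl was at 285 to 414 against 129 to 334.

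The genes with the largest log2 differences among those with a mean of at least 10 CPM were 12 predicted genes: Gm10715, Gm11168, Gm17535, Gm10717, Gm10718, Gm10801, Gm10720, Gm10721, Gm10719, Gm21738, Gm10722 and Gm10800, with log2 differences of 4.76 to 5.04. Gm10800 was at 24760 in KO 5, 162595 in NTC 1, 9125 in KO 2 and 9611 in KO 1, against 511 to 4379 in the other 6 (median 2158). Together these genes took 12.5% of the gene reads of NTC 1, 2.90% in KO 5, 1.08% in KO 2 and 1.22% in KO 1, against 0.0660% to 0.543% in the others. Their transcripts share sequence, with 34.3% to 89.3% of the 31-base words of each found in another of the 12, so reads could not be assigned to any of them with confidence and they are best read as 1 signal. They are annotated as predicted genes, and the median of the 12 was 3.90 without NTC 1. The cause was not tested.

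After these, by size, came Cd5l (4.58 ± 0.95), a macrophage-secreted scavenger protein, the myeloid lectin receptor Clec4d (3.57 ± 0.45), Fndc1 (3.07 ± 0.79), Clec4e (3.02 ± 0.36), Rnf150 (2.99 ± 0.54), the IL-7 receptor Il7r (2.92 ± 0.39) and the scavenger receptor Cd36 (2.85 ± 0.31). They were named after their values were seen, as were the phospholipase Pla2g7 (2.82 ± 0.39) and the growth factor Igf1 (2.62 ± 0.31). Cd5l was at 206 in KO 5, 67.0 in NTC 1, 249 in KO 2 and 10.2 in KO 1, against 0.447 to 8.22 in the other 6 (median 4.31). Cd36 was at 759.8 in KO 5, 699 in NTC 1, 453 in KO 2 and 418 in KO 1, against 33.9 to 123 in the other 6 (median 74.5). Clec4d was at 31.3 to 144 against 2.60 to 8.47, Il7r at 57.5 to 145 against 6.38 to 20.7 and Igf1 at 77.1 to 107 against 4.46 to 20.9, so that in each the rich side stood clear of the rest. All of those given here by CPM were also called without NTC 1.

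Enzymes of sterol synthesis stood among the 12 genes with the largest differences of those called lower. Fdps, Mvd and Idi1 act in the mevalonate pathway, and Lss closes the ring system of the sterols. Fdps was at 5.34 in KO 5, 2.56 in NTC 1, 9.00 in KO 2 and 5.99 in KO 1, against 10.2 to 18.6 in the other 6 (median 14.6), a log2 difference of -1.69 ± 0.25. Lss was at 30.9 in KO 5, 18.9 in NTC 1, 38.6 in KO 2 and 36.2 in KO 1, against 65.9 to 92.3 in the other 6 (median 77.8), a difference of -1.52 ± 0.15. Mvd was at 7.41 to 14.3 against 20.8 to 31.5 (-1.37 ± 0.13) and Idi1 at 4.45 to 11.5 against 15.3 to 22.6 (-1.36 ± 0.20). In each of these 4 genes NTC 1 was the lowest tumor, and all were called again without it, at -1.12 to -1.44.

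The 12 also held Gpr37 (-1.64 ± 0.21), an orphan receptor, Coq8a (-1.50 ± 0.19), of coenzyme Q synthesis, Megf6 (-1.46 ± 0.24), Extl1 (-1.44 ± 0.24), a glycosyltransferase gene of heparan sulfate synthesis, and the noncoding 9530059O14Rik (-1.49 ± 0.31) and Mir670hg (-1.37 ± 0.31). Gpr37 was at 5.56 in KO 5, 6.74 in NTC 1, 7.94 in KO 2 and 9.02 in KO 1, against 14.0 to 27.6 in the other 6 (median 20.3). Fdps lies at chr3:89093588-89101967 and Lss at chr10:76531565-76557139 (RefSeq, GRCm38.p6).

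The contrast was then read within each group, where no genotype label can enter. Among KO tumors, KO 1, 2 and 5 against KO 3 and 4, 1941 of 16463 genes were called higher (11.8%) and 373 lower (2.27%). In NTC tumors only NTC 1 was rich, and with a single library no replicate check is possible. It was above all 4 other NTC tumors and more than 2-fold from their mean in 19.1% of genes, and below them in 6.12%. Of 1752 genes called higher within KO tumors and tested over all 10, 1509 (86.1%) were also higher in NTC 1 by that rule, and 11 were lower. Of 281 called lower within KO, 103 (36.7%) were lower in NTC 1 and 40 higher. Genes of the skeletal muscle and keratinocyte lists were high in KO 3 and 4. Many of them passed the filter on low counts only through these tumors, so no count or median of their lists is read. Acta1, skeletal muscle actin, was at 52.2 in KO 4, 7.20 in KO 3 and 0.0444 to 1.06 in KO 1, 2 and 5, and Krt14, a keratin of the epidermis, at 7.74 in KO 3 and 1.55 in KO 4. The source of these transcripts and their part in the other differences were not tested. Macrophage genes were higher in either group, with medians of 1.85 in KO and 2.57 for NTC 1, and so were T cell genes, with 2.10 and 1.58. Among KO tumors 16 of 17 T cell genes were called higher, beside 11.8% of all genes, against 7 of 17 over 10 tumors, where NTC 5 overlapped the rich side. Fibroblast genes had 1.69 and 3.69. MHC class II genes had 1.41 in KO, where 7 of 10 were called, and 0.77 for NTC 1. Cell cycle genes had medians of -0.70 and -0.68, with 0 of 16 called in KO. Mitochondrial genes had -0.15 in KO and 2.95 for NTC 1.

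**Figure D4:**
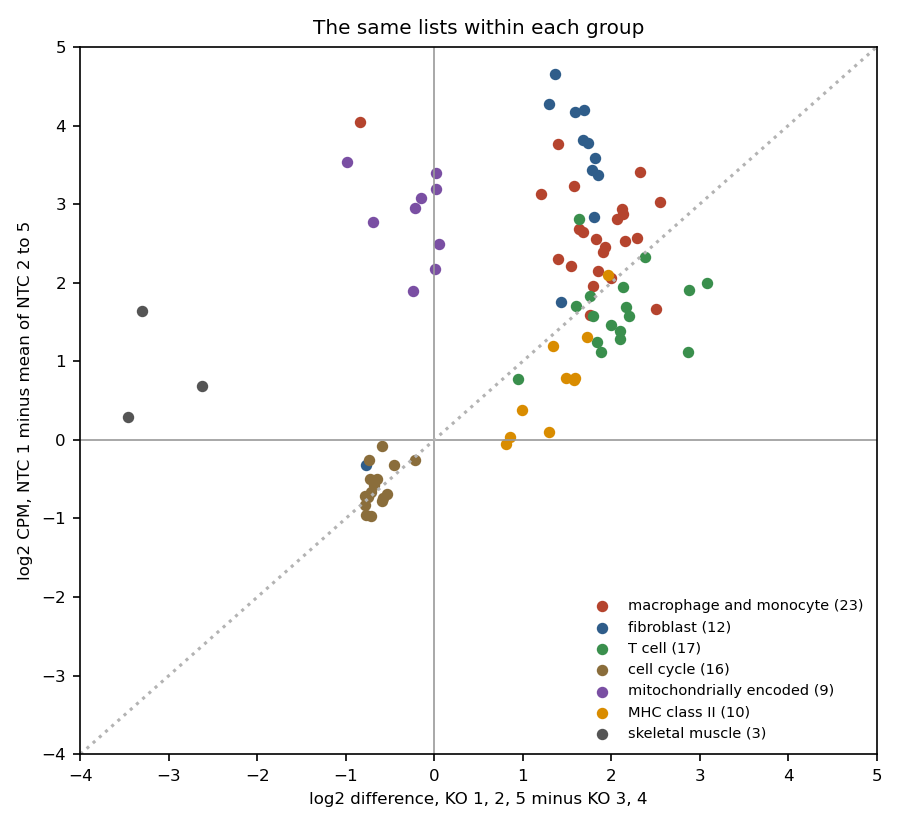
Each point is a gene of 7 lists, with its log2 difference among KO tumors (KO 1, 2 and 5 minus KO 3 and 4) on the x axis and its log2 CPM in NTC 1 minus the mean of NTC 2 to 5 on the y axis; the dotted line marks equal values and the number of genes stands in brackets. Macrophage, T cell and fibroblast genes lie in the upper right with the exception of Cd163 and Fbln1, all fibroblast genes lie above the line, and mitochondrial genes lie between -0.98 and 0.05 in KO but between 1.89 and 3.54 for NTC 1.

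Genes studied with miR-25 were read against the ratio in turn. Sdc3, the heparan sulfate proteoglycan syndecan 3, was at 336 in KO 5, 256 in NTC 1, 327 in KO 2 and 175 in KO 1, against 38.3 to 105 in the other 6 (median 76.8), a log2 difference of 1.82 ± 0.31 and 1.64 without NTC 1, so it followed the leukocyte ratio. Sdc3 lies at chr4:130792537-130826318, Ctss at chr3:95526786-95556405 and Btn2a2 at chr13:23477049-23488858 (RefSeq, GRCm38.p6). Within KO tumors Sdc3 was at 175 to 336 in KO 1, 2 and 5 and 82.9 to 89.6 in KO 3 and 4. Ifngr1, the ligand-binding chain of the IFN-gamma receptor, was called (1.43 ± 0.25), at 58.3 to 132 against 23.3 to 43.3, and Ifngr2 (0.32 ± 0.10), its partner chain, was not. The receptor's kinases Jak1 (0.75 ± 0.10) and Jak2 (0.59 ± 0.15) were higher without overlap but under 2-fold. Notch1 had the same form (0.87 ± 0.18). Mcm7, the host gene of Mir25 and a replication helicase, was lower without overlap (-0.65 ± 0.14), and Ago2, the slicer that miRNAs guide, differed by -0.07 ± 0.20. Btn2a2, a butyrophilin, followed the genotype: it was at 35.8 to 120.3 in KO and 0.0328 to 0.536 in NTC tumors, rich or not.

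KO and NTC tumors were last compared with the log2 ratio of each tumor as a covariate, which asks what differs by genotype at an equal leukocyte ratio. With an adjusted p under 0.05 and a fold above 2 in edgeR's quasi-likelihood test, 8 genes were higher (0.0506%) and 20 lower (0.126%) in KO tumors, of 15811 tested. Without the covariate 1 was higher and 2 lower. Btn2a2 was higher by 9.02 ± 0.43 on the log2 scale (edgeR adjusted p = 1.58e-06), in 5 of 5 KO tumors above every NTC tumor, and was called with every tumor left out in turn. Shisa2, an inhibitor of Wnt and FGF signaling, was higher by 3.52 ± 0.46 (edgeR adjusted p = 0.0159). Olfml1 was at 2.45 to 5.69 in KO and 12.7 to 18.1 in NTC tumors, lower in 5 of 5 KO tumors, with a log2 fold change of -1.93 ± 0.21 (edgeR adjusted p = 0.00923). Wnk3, a kinase of ion transport, was at 1.06 to 2.23 against 6.72 to 8.46, a log2 fold change of -2.03 ± 0.24 (edgeR adjusted p = 0.0127). Among the other genes called higher were Perp, Lrrc4b, Car6, Fbxl7 and Aif1l, of which Perp, also a gene of keratinocytes, was highest in KO 3, at 9.47. Among those called lower were Epha5, Dlec1, Pla2g5, Slco1a4 and Zfp985, at 5.86 CPM or less in every tumor. These counts depended on single tumors: without KO 3 edgeR called 1 higher and 0 lower, and without KO 4 the counts were 1 and 2. Without KO 3, 100 genes were higher and 311 lower at a fold above 2 and an unadjusted edgeR p under 0.05. DESeq2 then called 25 higher and 53 lower.

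The KO minus NTC medians of the macrophage, T cell, MHC class II, checkpoint and complement lists were nearer 0 at an equal ratio. The ratio was higher on average in KO tumors, so genes that rise with it move down when it is held. For such genes the move follows from the choice of covariate and is not a separate result. The median log2 fold change of the macrophage list was 0.94 without and 0.10 with the covariate, of T cell genes 1.12 and 0.12, of MHC class II genes 1.01 and 0.16, and of checkpoint genes 0.99 and 0.09. Complement genes had 0.40 and 0.00. Sdc3 went from 0.99 to 0.26 ± 0.10 (edgeR adjusted p = 0.253). Other immune lists moved further from 0: chemokine genes had 0.16 and -0.60, neutrophil genes -0.27 and -0.77, IFN-gamma response genes 0.05 and -0.26, and type I interferon genes -0.35 and -0.54. Mitochondrial genes had -1.32 and -1.31, where NTC 1 stood apart: their mean log2 CPM was 9.99 in NTC 1, 6.48 to 8.33 in NTC 2 to 5 and 6.79 to 7.66 in KO tumors. These medians are descriptions: no gene of the 10 lists just named was called either way, and the genotype and the ratio are partly aligned in 10 tumors.

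**Figure D5:**
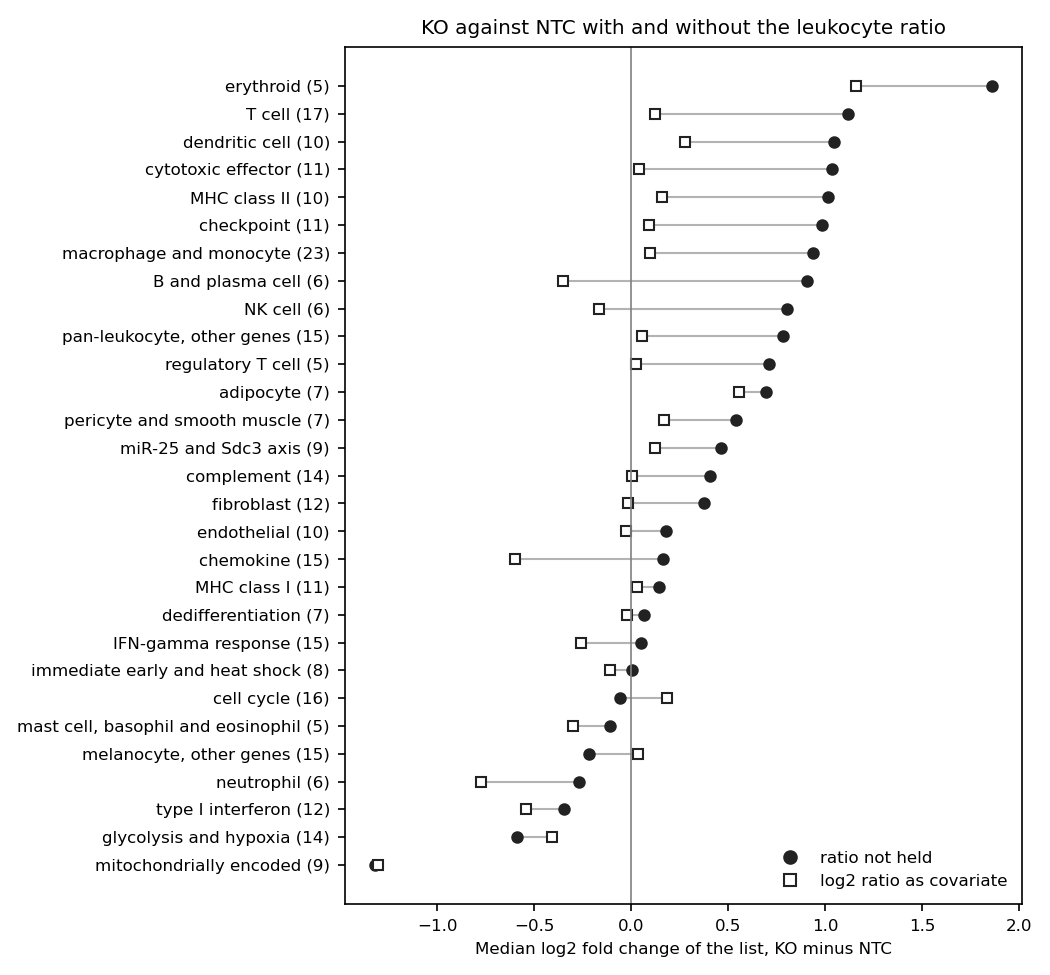
Each row is a list with at least 5 genes tested (number in brackets), with its median log2 fold change, KO minus NTC, as a filled circle without and an open square with the log2 leukocyte ratio as a covariate. The macrophage, T cell, MHC class II and checkpoint medians move from between 0.94 and 1.12 to between 0.09 and 0.16, and the mitochondrial median is -1.32 and -1.31, where NTC 1 has a mean log2 CPM of 9.99 and the other 9 tumors 6.48 to 8.33.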

How the data were processed

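Tumor RNA was sequenced on an Illumina NovaSeq instrument. Per the study's methods and the submitters' processing notes, the authors checked reads with FastQC, trimmed them with Trimmomatic, aligned them to mm10 with HISAT2 and counted them with HTSeq. The annotation and the strand setting are not given in the sources used here, so overlapping and antisense genes cannot be told apart. The deposited values are raw counts per gene for 10 tumors. Rows that name no gene (unassigned and ambiguous reads) were left out of library sizes and tests.

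Counts were filtered with filterByExpr, scaled by TMM and fitted by edgeR 4.0.16 (quasi-likelihood, R 4.3.3) with the group and the side as terms. The ratio was compared between groups by a two-sided exact permutation test, and KO with NTC by edgeR with the log2 ratio as a covariate and Benjamini-Hochberg adjustment over all genes tested. DESeq2 1.42.0, other filters, scalings and divisions of the tumors, and each tumor left out were alternatives. The fits were tested on simulated data. The 10 genes of the ratio were left out of every count.

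The members and the gene lists were chosen with earlier results of these data known. Named are the defining genes, the 12 genes called higher and the 12 called lower with the largest differences at a mean of at least 10 CPM, of each list the 3 called genes with the largest difference and the 2 genes not called with the highest mean, the genes studied with miR-25, and genes called between KO and NTC. Other names were chosen after their values were seen: Adgre1, C1qa, C1qc, Csf1r, Cd163, Cd37, Inpp5d, Vav1, Spi1, Tap1, Acta1, Krt14 and those said so in the text. Some genes that the rule names are not reported here.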

Additional observations from a re-analysis of the deposited data

Results flagged for a closer look

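A tumor far from the others of its group, by Dixon's criterion at 95%, was looked for in 39 quantities and 2 groups of 5, 78 checks of which chance alone gives about 1 in 20. There were 7, and 6 of them were NTC 1 among the NTC tumors. Its leukocyte ratio was 0.149679, against 0.0117 to 0.0399 in NTC 2 to 5. It had 11896643 reads on genes, against 24145795 to 28682130. The 12 predicted genes took 12.5304% of its gene reads, against 0.0660% to 0.543%, and its counts above 0 covered 33193 genes, where NTC 2 to 5 had 22192 to 23831. The mean log2 CPM of the neutrophil list was 3.82701, against -1.01 to 0.32, and that of the skeletal muscle list 1.42624, against 0.42 to 0.70. The seventh was KO 2, whose mean log2 CPM of the lymphatic endothelial list was 1.96758, against 2.31 to 2.43 in the other KO tumors. What set NTC 1 apart was not tested, and its results with and without it stand in the report.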

How the results depend on the processing

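Without NTC 1 the rich side holds KO tumors alone, a limit of every value given without it. The counts of genes higher in the leukocyte-rich tumors were 1314 with RLE size factors, 1315 with DESeq2 and 1350 without the 12 predicted genes, an alternative chosen after seeing the data, and 1244 (without NTC 1) to 1717 (without KO 1) with each tumor left out. With 5 tumors against 5 they were 827 higher and 27 lower, and with a fold above 4 they were 538 and 6. Genes lower numbered 207 with no filter on low counts, 63 with at least 10 counts in every tumor and 373 in KO tumors only, and 119 (without KO 5) to 244 (without KO 1) with each tumor left out, with 187 without KO 2 and 175 without NTC 1. For named genes the differences were recomputed with RLE size factors, DESeq2, no group covariate, the replicate block, a slope on the log2 ratio, KO tumors only and each tumor left out. Each value counted is a gene in a setting: 2139 moved by less than the spread between replicates and 53 moved more. A change of sign was counted only among called genes and was found in 0. Their sides do not overlap, so this was nearly fixed in advance.

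Genes called between KO and NTC tumors at an equal ratio depended on the settings: 34 higher and 98 lower by DESeq2, 82 and 151 with no filter, 4 higher with at least 10 counts in every tumor, 1 and 2 with no covariate, and 2 and 5 with the sides as covariate. With each tumor left out in turn there were 1 (without KO 3 or KO 4) to 10 higher and 0 (without KO 3) to 17 lower (without NTC 5), fewer than the 20 lower each time. The cause was not tested. By the replicate block, 1426 genes were higher and 168 lower in the rich tumors, 6 higher and 14 lower in KO tumors, and the log2 ratio difference of 1.13 had p = 0.312 by an exact sign-flip permutation test, whose smallest p is 0.0625. Correlations between tumors of the same replicate number ran from -0.287 to 0.633, and 3 of 10 tumors correlated best with their own number, so the numbers were not taken to pair the tumors. The log2 ratio difference was 0.76 (without KO 5) to 1.70 (without NTC 1) with each tumor left out.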

Other observations

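The sterol enzymes among the genes called lower led to 3 lists written after the values were seen, which are given as values and support nothing beyond them. Of 26 genes of sterol synthesis and uptake, 16 were called lower in the leukocyte-rich tumors, beside 0.727% of all genes, and the other 10 were also below 0, with a median log2 difference of -1.18 and a range of -1.77 to -0.38. Sqle, the squalene epoxidase, was at 43.8 in KO 5, 39.2 in NTC 1, 56.2 in KO 2 and 60.4 in KO 1, against 91.0 to 125 in the other 6 (median 113), a difference of -1.29 ± 0.12, and Insig1, a sterol sensor, differed by -1.26 ± 0.14. Without NTC 1, 18 were called lower, beside 1.09% of all genes, and within KO tumors 16, beside 2.27%. Of 9 genes of fatty acid synthesis 3 were called lower, beside 0.727%. Of 9 genes of cholesterol efflux and its LXR receptors 6 were called higher, beside 8.60%, with a median of 1.67. Abca1, a cholesterol exporter, was at 863 in KO 5, 783 in NTC 1, 751 in KO 2 and 413 in KO 1, against 49.2 to 205 in the other 6 (median 112), a difference of 2.56 ± 0.41, and Abcg1 and Nr1h3 differed by 2.61 ± 0.54 and 1.61 ± 0.64. Apoe stands in this list and in the macrophage list.

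Xist, the noncoding RNA of the inactive X chromosome in female cells, was at 287 to 528 in the leukocyte-rich and 27.8 to 136 in the other tumors, a log2 difference of 1.96 ± 0.39, and was named after its values were seen. The hosts are female per the study's methods. What part of these transcripts host and melanoma cells contributed was not tested.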
